A study of Brassica napus with 6 samples.

Results

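In oilseed rape roots exposed to cadmium, 51 probe sets had higher values on every array from roots that also received reduced glutathione (GSH) than on any array from roots with cadmium alone, with a mean difference of 0.3 or more on the log2 scale. They were chosen from 22746 probe sets of the deposited table by these values themselves, so the levels and differences of the members are a description of how they were chosen and carry no test. The annotation gave 14 of the 51 a single gene, 3 a pair of genes and 34 none. The 14 named genes were 2 of the lipid-transfer protein family, 2 class III peroxidases, a pectate lyase, a beta-tubulin, a phosphocholine-route methyltransferase, a 2-oxoglutarate-dependent oxygenase, a prolyl oligopeptidase, cystathionine beta-lyase, a defensin, a PR-1-like protein, a protein of a pathogenesis-related family and an acid phosphatase.

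The GSH arrays came from roots of Brassica napus cultivar Nourin No.16 given 10 µM cadmium chloride together with GSH, which the labels give as 100 mM, for 2 days. The cadmium-only arrays came from roots given 10 µM cadmium chloride without GSH over the same 2 days. Both groups therefore carried cadmium, and roots without cadmium were not analysed here. Each group had 3 samples that the labels call biological replicates, with 1 array each, and the labels give the plants' age as 4 weeks after germination in one place and as 2 to 3 weeks in another. The array's probes were made for Arabidopsis thaliana, so each gene named is the Arabidopsis gene of its probe set, its role is known from Arabidopsis, and a low signal does not show a low transcript level in oilseed rape. In whole roots, fewer cells of a type and less RNA per cell cannot be told apart.

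GSH is the tripeptide thiol from which plants build phytochelatins, the peptides that bind cadmium. A root in cadmium meets the metal first in its cell walls, a matrix of cellulose, pectin and structural protein that growing cells build and loosen. Class III peroxidases act in that matrix, where they use hydrogen peroxide to cross-link wall polymers or, in other settings, to loosen them. Lipid-transfer proteins are small cysteine-rich proteins found in walls and at the surfaces of roots and shoots, and some of them carry lipids. Membership of the family does not show that a given protein carries lipids. Tubulins form the microtubules that guide the laying down of cellulose.

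Most of the table could not contribute members. Of the 22746, 20318 (89.3%) ranged over no more than 0.01 on the log2 scale across the 6 arrays and are called constant, and 2428 varied. The conditions were met by 56 probe sets, which is 0.246% of all probe sets and 2.31% of the varying ones. The opposite conditions, lower on every GSH array by 0.3 or more, were met by 78, which is 0.343% of all and 3.21% of the varying. Of the 56, 4 were left out as ribosomal protein genes and 1, the chloroplast gene psbZ at 0.32, for its probe set number. Left out among the 4 was AT4G12600, which differed by 0.47 and belongs to a ribosomal protein family by name. An unnamed member may still be a ribosomal gene. Across all 2428 varying probe sets limma with Benjamini-Hochberg adjustment called 0, with a smallest adjusted p of 0.0791, and 312 had an unadjusted p under 0.05, 150 of them higher with GSH. The limma count was 42 when the constant probe sets were included and 13 without cadmium-only replicate 3.

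**Figure D1:**
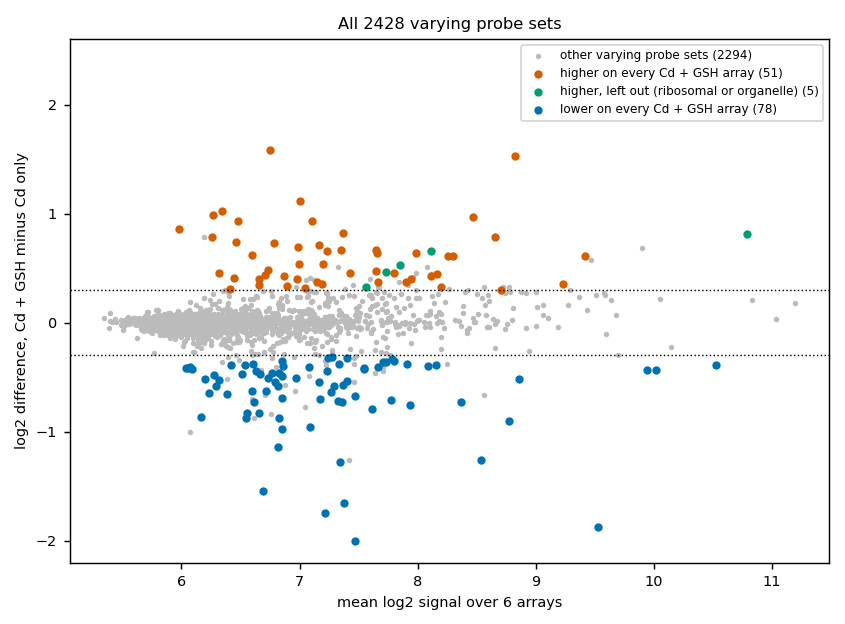
Mean log2 signal over the 6 arrays (horizontal) against the log2 difference, Cd with GSH minus Cd only (vertical), for the 2428 varying probe sets. Orange points are the 51 members, green the 5 left out, blue the 78 lower on every GSH array, and dotted lines mark 0.3 and -0.3. The members span signals from dim to bright. Points show measured differences, which for the 5 members not above background on any cadmium-only array are larger than their lower bounds.

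Signals are read against 27 control probe sets for bacterial genes, whose means ran from 5.44 to 6.05. Of the 51 members, 45 (88.2%) had means above 6.05 in both groups, against 68.4% of the varying probe sets. The other 6 were above it with GSH and not with cadmium alone. For 5 of these 6, none of the cadmium-only arrays exceeded 6.05, so their fold is given as a lower bound against that level. Of the members, 42 (82.4%) lay in the brightest 10% of all probe sets by mean signal, against 31.8% of the varying ones.

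**Figure D2:**
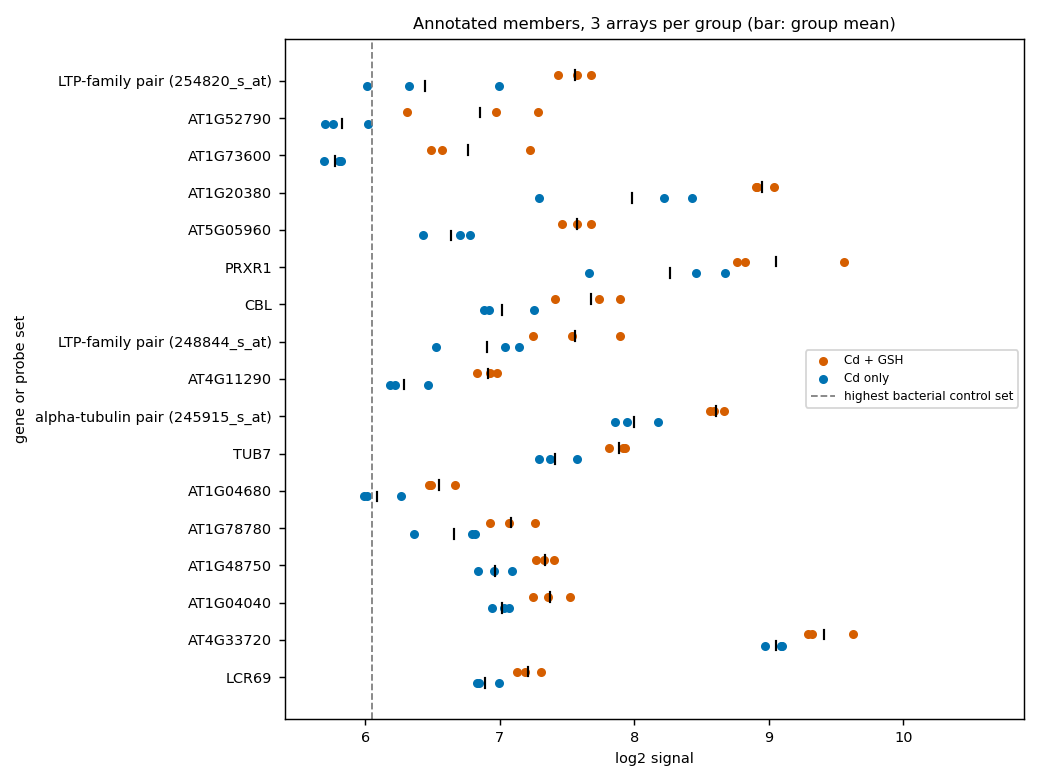
Log2 signal (horizontal) of the 17 annotated members, ordered by mean difference, with 3 GSH arrays (orange) above 3 cadmium-only arrays (blue) in each row, a black bar at each group mean and a dashed line at the highest bacterial control mean, 6.05. AT4G33720 is the brightest in both groups, and AT1G52790 and AT1G73600 lie below the dashed line on all cadmium-only arrays.

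Lipid-transfer proteins and lipid synthesis made the largest of the groups assigned by hand, with 5 of the 17 annotated members. The group joins 4 members of the lipid-transfer family to 1 methyltransferase of lipid synthesis. That family was well represented on the array, with 20 varying and 25 constant probe sets matched. The share of lipid genes among all varying probe sets was not counted, so the group's size does not show an excess of them. AT5G05960 (250764_at), of the lipid-transfer family, read 7.58, 7.46 and 7.68 on the GSH arrays, against 6.43, 6.78 and 6.71 on the cadmium-only arrays. Its group means were 7.57 ± 0.11 with GSH and 6.64 ± 0.19 with cadmium alone (SD, n = 3 each), a difference of 0.93. The lowest GSH array stood 0.68 above the highest cadmium-only array, and no array alone carried the difference, which was 0.83 or more with any array left out.

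A probe set listed for 2 genes of this family (254820_s_at) read 7.68, 7.57 and 7.43 with GSH, against 6.32, 6.01 and 6.99 with cadmium alone, and differed by 1.12. Its GSH arrays lay within 0.24 of each other while its cadmium-only arrays spread over 0.98. A second pair of genes of the family, read by 248844_s_at, had 7.90, 7.25 and 7.54 with GSH, against 7.14, 6.52 and 7.04 with cadmium alone, a difference of 0.66. Its groups were separated by only 0.11, less than the spread within either group. AT1G48750 (256145_at) had 7.40, 7.33 and 7.27 with GSH, against 6.95, 6.84 and 7.09 with cadmium alone, a difference of 0.37. The groups of AT1G48750 were 0.18 apart, more than its spread of 0.13 with GSH and less than that of 0.25 with cadmium alone.

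AT1G73600 (259842_at) encodes a methyltransferase of the family that makes phosphocholine, the head group of the main membrane phospholipid. It read 7.22, 6.49 and 6.57 on the GSH arrays, against 5.80, 5.70 and 5.82 on the cadmium-only arrays. GSH replicate 1 stood well above the other GSH arrays. None of the cadmium-only arrays exceeded the highest bacterial control, so the AT1G73600 signal was at least 1.63-fold higher with GSH. The other probe set matched to this enzyme family was constant.

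Class III peroxidases were the second family with more than 1 named member. AT4G11290 (254914_at) read 6.98, 6.83 and 6.93 with GSH, against 6.18, 6.47 and 6.22 with cadmium alone, and differed by 0.62. PRXR1 (254386_at), one of the brighter members, read 9.56, 8.76 and 8.83 with GSH, against 7.66, 8.46 and 8.67 with cadmium alone. Its difference of 0.78 rested mostly on a high GSH replicate 1 and a low cadmium-only replicate 1. The remaining arrays lay between 8.46 and 8.83, the groups were only 0.09 apart, and the difference was 0.48 without cadmium-only replicate 1.

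Wall and microtubule genes were represented by a pectate lyase and the tubulins. AT1G04680 (264611_at), a pectate lyase, an enzyme that cuts the pectin backbone of the wall, read 6.67, 6.49 and 6.47 with GSH, against 6.26, 6.01 and 5.99 with cadmium alone. On 2 of the 3 cadmium-only arrays it lay below the highest bacterial control. TUB7 (266295_at), a beta-tubulin, read 7.92, 7.93 and 7.81 with GSH, against 7.57, 7.29 and 7.38 with cadmium alone, a difference of 0.47. The probe set 245915_s_at, listed for 2 alpha-tubulin genes, read 8.56, 8.59 and 8.67 with GSH, against 7.94, 7.86 and 8.18 with cadmium alone, a difference of 0.61. The gap of 0.38 between the groups of the alpha-tubulin set was wider than the spread within either group, 0.11 with GSH and 0.32 with cadmium alone. The TUB7 gap of 0.24 was wider than its spread of 0.12 with GSH and narrower than that of 0.28 with cadmium alone.

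Enzymes of other kinds were represented by an oxygenase, a peptidase and a methionine synthesis enzyme. AT1G52790 (260147_at), an iron- and 2-oxoglutarate-dependent oxygenase, read 7.28, 6.31 and 6.97 with GSH, against 5.70, 5.76 and 6.02 with cadmium alone. As no cadmium-only array exceeded the highest bacterial control, the AT1G52790 signal was at least 1.74-fold higher with GSH. Its GSH arrays spread over 0.98. AT1G20380 (255940_at), a prolyl oligopeptidase, which cuts short peptides after proline, read 9.04, 8.90 and 8.92 with GSH, against 7.29, 8.43 and 8.22 with cadmium alone. Cadmium-only replicate 1 lay far below its fellows, and without it the difference of 0.97 shrank to 0.63.

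The member CBL (251666_at) is cystathionine beta-lyase, the enzyme that turns cystathionine into homocysteine on the way from cysteine to methionine. Its symbol is also used for calcium-sensor proteins; the Entrez number in the annotation places it between AT3G57030 and AT3G57060, where cystathionine beta-lyase lies. It read 7.90, 7.73 and 7.41 with GSH, against 6.92, 7.25 and 6.88 with cadmium alone, a difference of 0.66, and the groups were 0.16 apart. The only other matched gene of methionine synthesis, the homocysteine methyltransferase HMT-1, had the opposite order, with 6.69, 6.65 and 6.65 on the GSH arrays, against 7.55, 6.80 and 6.84 on the cadmium-only arrays. HMT-1 met the opposite conditions, with a difference of -0.40. Cadmium-only replicate 1 was its highest array, and without it the difference was -0.16 with the groups still apart.

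Defence-related families gave 3 members with smaller differences. AT4G33720 (253301_at), a PR-1-like protein of the secreted CAP family, read 9.29, 9.32 and 9.62 with GSH, against 8.97, 9.10 and 9.09 with cadmium alone. It was the brightest annotated member, and its difference of 0.36 was 0.25 without GSH replicate 3 and 0.28 under quantile normalisation, both under the limit of 0.3. LCR69 (266119_at), a small cysteine-rich defensin, read 7.31, 7.18 and 7.13 with GSH, against 6.83, 7.00 and 6.84 with cadmium alone, a difference of 0.32. AT1G78780 (264301_at), of a pathogenesis-related family, read 7.26, 6.93 and 7.07 with GSH, against 6.36, 6.81 and 6.80 with cadmium alone. Cadmium-only replicate 1 was again the lowest array for AT1G78780, and its difference of 0.43 was 0.28 without it. The remaining named member, AT1G04040 (265042_at), is of a plant acid phosphatase family related to vegetative storage proteins and read 7.52, 7.36 and 7.25 with GSH, against 7.03, 6.94 and 7.07 with cadmium alone.

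The 34 unnamed members include the 2 with the largest differences of all 51. The unnamed probe set 254687_at read 8.11, 7.73 and 6.78 with GSH, against 5.98, 5.99 and 5.90 with cadmium alone, so its level was at least 2.81-fold higher on GSH arrays that themselves spread over 1.32. The brighter 260693_at read 9.21, 9.57 and 9.96 with GSH, against 7.33, 8.52 and 8.32 with cadmium alone, a difference of 1.53. The 2 probe sets are opposite in their spread: the GSH arrays vary most in 254687_at and the cadmium-only arrays in 260693_at. With members not above background on any cadmium-only array at their lower bounds, differences over the 34 ran from 0.30 to 1.53 with a median of 0.47, and over the 17 annotated members from 0.32 to 1.12 with a median of 0.62. Unnamed probe sets made up 66.7% of the members and 47.4% of the varying probe sets.

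Among the unnamed members, 257816_at had the narrowest spread over the GSH arrays, with 6.84, 6.84 and 6.82 on the GSH arrays, against 6.43, 6.53 and 6.48 on the cadmium-only arrays. The probe set 246580_at, with 6.81, 6.88 and 6.80 with GSH, against 5.95, 6.04 and 6.28 with cadmium alone, combined close GSH arrays with a difference of 0.74. The brightest unnamed member, 254098_at, read 9.72, 9.77 and 9.69 with GSH, against 9.07, 8.92 and 9.34 with cadmium alone. These 3 were chosen after their values were seen. In 252927_at, by contrast, the difference of 0.33 came down to 0.08 without cadmium-only replicate 1, the lowest such value among the members.

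**Figure D3:**
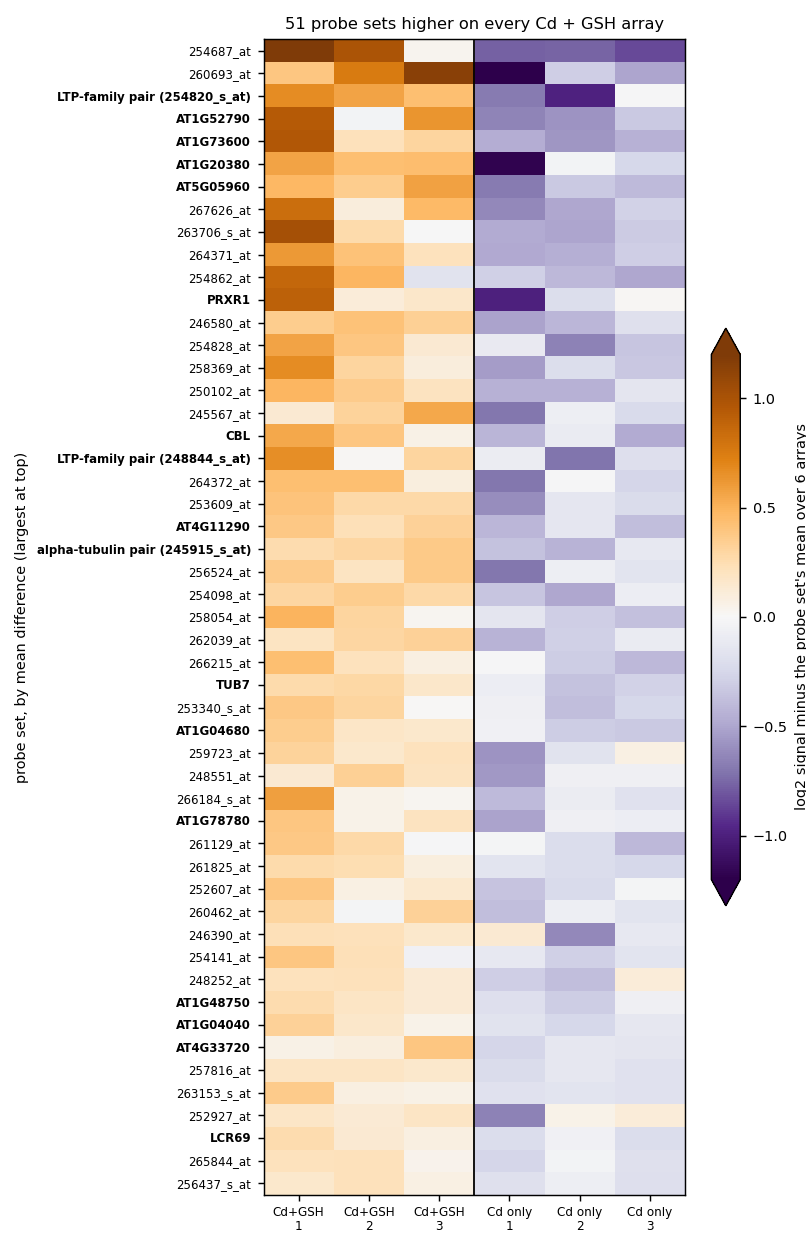
Log2 signal minus each probe set's own mean over the 6 arrays, for the 51 members (rows, largest difference at the top, annotated members in bold) on the 3 GSH arrays and then the 3 cadmium-only arrays (columns). Orange is above and purple below the mean; GSH replicate 1 is the darkest orange in many rows, and cadmium-only replicate 1 the darkest purple.

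Arrays within a group were not alike across the members. A low cadmium-only array or a high GSH array raises the mean difference that chose the members, so the counts below are in part set by the choice. GSH replicate 1 was the highest GSH array for 33 of the 51 members (64.7%), against 32.8% of the varying probe sets, and GSH replicate 3 was the lowest for 31 (60.8%), against 35.5%. Cadmium-only replicate 1 was the lowest cadmium-only array for 27 members (52.9%), against 30.3% of the varying probe sets. It lay 0.4 or more below both other cadmium-only arrays for 10 members, among them AT1G20380, PRXR1 and AT1G78780, and for 26 varying probe sets in all. Cadmium-only replicate 2 lay that far below both others for 2 members of 8 varying probe sets, and replicate 3 for 0 members of 27. These counts are a description without a test, also because probe sets share the same 6 arrays. Spread was otherwise similar in both groups: the range over 3 arrays had a median of 0.30 with GSH and 0.33 with cadmium alone. It was wider with cadmium alone for 56.9% of the members and for 60.0% of the varying probe sets.

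The gap between the lowest GSH and the highest cadmium-only array ran from 0.01 to 0.80 among the members, with a median of 0.21. It exceeded 0.2 for 26 members, and for 4 it was under 0.05. With the 5 members that were not above background on any cadmium-only array at their lower bounds, the mean difference ran from 0.30 to 1.53, with a median of 0.54, and it was 0.5 or more for 26 members. Leaving out 1 array in turn shrank the difference by over 1.5 times for 9 members, 6 of them on leaving out cadmium-only replicate 1, 2 on leaving out GSH replicate 1 and 1 on leaving out cadmium-only replicate 2. The named genes among the 9 were AT1G20380, PRXR1 and AT1G78780. For 37 members the difference stayed at 0.3 or more whichever array was left out.

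**Figure D4:**
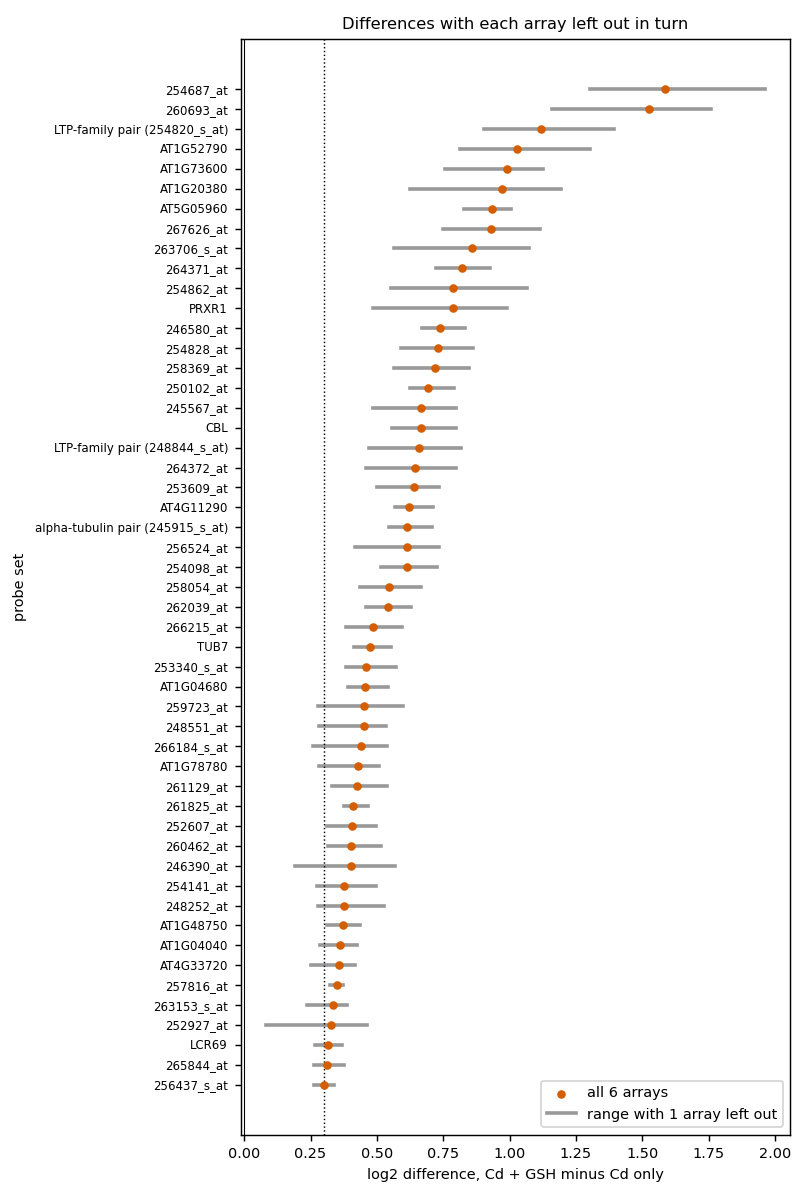
Log2 difference, Cd with GSH minus Cd only, of each member with all 6 arrays (orange points) and its range when each array is left out in turn (grey bars), with a dotted line at 0.3. The bars of 37 members stay at or above 0.3, and the lowest end, 0.08, belongs to 252927_at.

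At the limit of 0.3, the named genes just inside were LCR69 with 0.32, AT4G33720 with 0.36 and AT1G04040 with 0.36. Just outside, with groups that also did not overlap, were AT3G08610 with 0.298, TBL36, from the wall polysaccharide acetyltransferases, with 0.29 and AT1G68040 with 0.26. The next was LCR68, a defensin like LCR69, with 0.26. LCR68 read 7.86, 7.96 and 7.82 on the GSH arrays, against 7.40, 7.72 and 7.76 on the cadmium-only arrays.

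Relatives of the members were looked up in lists of Arabidopsis families written with earlier results of these data known, so their counts are given beside the background and support nothing. Of the 2428 varying probe sets, 8.9% were higher on every GSH array by any size and 9.84% lower. In the lipid-transfer family, 45 probe sets were matched, 25 of them constant; of the 20 that varied, 11 were higher on every GSH array, 4 of these being members, and 1 was lower. AT2G45180, the next below the members among those, had means of 6.64 ± 0.14 with GSH and 6.41 ± 0.06 with cadmium alone (SD, n = 3 each). AT1G12100, AT3G53980 and AT3G58550 were separated by smaller differences of 0.11, 0.11 and 0.09. AT1G62510, AT3G22620 and AT5G48490 were higher by only 0.05, 0.04 and 0.02. The lower one, AT5G38170, differed by -0.06. Both AT1G62510 and AT5G38170 lay below the highest bacterial control, 6.05, on all arrays.

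Class III peroxidases showed both orders. Of 56 matched probe sets 41 were constant, and of the 15 that varied 4 were higher on every GSH array and 2 lower. The 4 were PRXR1, AT4G11290, AT5G15180 with 0.14 and AT5G17820 with 0.06; the 2 were AT5G66390 with -0.18 and AT4G33420 with -0.14. A probe set listed for 2 peroxidase genes, 267053_s_at, had a mean difference of 0.51 but overlapping groups.

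Tubulins were split between large differences and nearly none. Of 8 matched probe sets 5 varied, and beside the 2 members the others were TUB5 with 0.04, TUA1 with 0.02 and TUA6, which differed by less than 0.01. TUA6 was nearly constant, between 7.09 and 7.10 on all arrays. TUB5 had means of 6.08 with GSH and 6.04 with cadmium alone, near the highest bacterial control. In the oxygenase cluster, AT1G52820, near AT1G52790, had means of 6.17 with GSH and 5.98 with cadmium alone and did not overlap, AT1G52810 differed by 0.06 with overlapping groups, and AT1G52800 was constant. No cadmium-only array of AT1G52820 exceeded the highest bacterial control, 6.05, and its GSH arrays were little above that level. Of 19 matched CAP proteins 6 varied, and AT4G33720 alone among the 6 was separated. The others hardly varied, with differences from -0.01 to 0.05, and AT2G19970 lay below the highest bacterial control on all arrays. Of 23 matched pectate lyase probe sets 22 were constant, so AT1G04680 is the one that could show a difference in either direction. Of 8 matched acid phosphatase genes 2 varied, AT1G04040 and AT2G38600 with -0.08, and the other matched prolyl oligopeptidase was constant. Of 10 matched defensins, LCR68 and LCR69 varied, and both were higher on every GSH array.

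**Figure D5:**
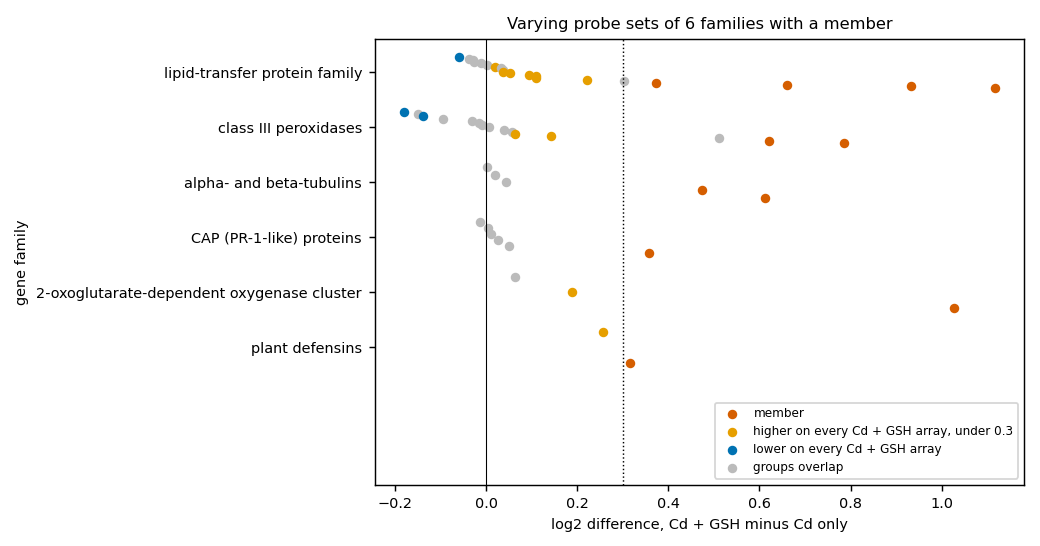
Log2 difference, Cd with GSH minus Cd only, of each varying probe set in 6 families that hold a member (rows; vertical offsets only separate points). Red-orange marks members, yellow other sets higher on every GSH array, blue sets lower on every GSH array, grey overlapping groups, and the dotted line 0.3; peroxidases have points on both sides of 0.

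The lists for GSH synthesis and recycling, sulfate uptake and reduction, and metal handling gave no members. Of 5 genes listed for GSH and phytochelatin synthesis and GSH recycling, 1 was matched, the glutathione reductase GR1, which was lower on every GSH array with a difference of -0.36. The 3 of 10 sulfate uptake and reduction genes that could be matched were constant, and of 9 metal handling genes the 1 matched, the metal transporter ZIP9, differed by 0.04. The root label could be checked little further, since 0 of 5 root identity genes were matched. Of 6 root hair genes 2 were matched, and the expansin EXPA18 varied, with means of 6.67 with GSH and 6.64 with cadmium alone. Of 9 green tissue genes 2 were matched and both were constant, and none of the endodermal, vascular or dividing-cell genes was matched.

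Control probe sets moved with the groups in part. All 11 varying sets for the bacterial Bio and phage Cre control transcripts had a higher mean on the GSH arrays, by 0.01 to 0.33, with overlapping groups in each. An actin 3' set read 8.95, 8.88 and 8.80 on the GSH arrays, against 8.71, 8.68 and 8.58 on the cadmium-only arrays, while its 5' partner differed by 0.01. A ubiquitin set (AFFX-Athal-Ubq_M_f_at) had the opposite order, with 8.40, 8.27 and 8.32 on the GSH arrays, against 8.50, 8.64 and 8.56 on the cadmium-only arrays, a difference of -0.23. Another ubiquitin set, AFFX-Athal-Ubq_3_f_at, differed by -0.19 with overlapping groups. The part of these control differences in those of the members was not tested. Medians of the varying probe sets lay between 6.26 and 6.27 on the GSH arrays and between 6.27 and 6.29 on the cadmium-only arrays.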

How the data were processed

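Total RNA from roots was labelled as biotinylated cRNA with a 3' amplification kit and hybridised to 1 array per sample, per the labels' protocols. The authors' deposited table gives 1 value per probe set and array, taken here as log2 from its range; the submitters' processing notes name R 2.7.2. Background correction, normalisation and probe summary: not given in the sources used here; the values were used as they stood. The 64 control probe sets were kept apart, leaving 22746. In the annotation, 13513 of these have 1 gene, 503 have several and 8730 have none, and no gene is named from a probe set with several.

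Members had a lowest GSH value above the highest cadmium-only value and a mean difference of at least 0.3, without ribosomal protein genes and probe set numbers under 245051. The members, the lists and the tests were chosen with earlier results of these data known. The fit used limma 3.58.1 in R 4.3.3 on the 2428 probe sets ranging over 0.01. Its code was also run on simulated data with independent noise in each probe set. Deviations that probe sets share on an array were not simulated, so that run does not show how well the fit detects differences here. Every member with 1 gene is given with all array values. Array values are not given for all unnamed members. Those left out include 267626_at with a measured difference of 0.93, 263706_s_at with 0.86 and 264371_at with 0.82. No cadmium-only array of 263706_s_at exceeded the highest bacterial control, so its difference is at least 0.35 as a lower bound. The cadmium-only mean of 267626_at, 6.02, also lay below that control. Some unnamed members with smaller differences are shown instead, chosen after their values were seen. Since the annotation holds no gene titles, function groups were assigned by hand from general knowledge of Arabidopsis. Alternatives were quantile normalisation, median centring, other limits, a floor, dim probe sets left out, leaving out each array and the replicate number as a block. The number of arrays limits the precision.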

Additional observations from a re-analysis of the deposited data

Results flagged for a closer look

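An actin 3' control probe set, outside every comparison made here, had all GSH arrays above all cadmium-only arrays, by 0.22 on the log2 scale. It was the only 1 of the 25 varying control sets to be so, a ubiquitin set was lower on every GSH array by a like amount (a difference of -0.23), and a second actin 3' set was constant.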

How the results depend on the processing

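The 51 members became 27 with a minimum difference of 0.5, which is stricter by construction, and 32 when each of the 3 same-numbered differences had to be 0.3 or more (31 of the 51 and 1 other). Their number was 46 to 74 with 1 array left out, with 44 to 50 of the 51 among them. Leaving out an array cannot make separated groups overlap, so a member could be lost there only through the limit of 0.3. In the other settings the number was 50 to 75. Among these, quantile normalisation kept 47 of the 51 (AT4G33720 and 3 unnamed probe sets were lost). The setting with ribosomal genes kept, added after seeing the data, gave 55. The 78 probe sets in the opposite direction became 43 with a minimum of 0.5 and 25 by same-numbered differences, and were 73 to 106 with 1 array left out. The differences of the 17 annotated members lay between 0.28 and 1.13 under quantile normalisation and median centring. With 1 array left out they lay between 0.25 and 1.39, where a sign above 0 is fixed by the choice of members, and those of AT1G20380, PRXR1 and AT1G78780 shrank by over 1.5 times without cadmium-only replicate 1.

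The 0 limma calls among varying probe sets became 3 with quantile normalisation, 5 for a range over 0.1 and 42 over all probe sets; the cause was not tested. Leaving out 1 array gave 0 to 13, the 13 without cadmium-only replicate 3. With the replicate number as a block the count was 0, with 301 unadjusted. The numbers are not shown to pair the samples: the correlations of same-numbered deviations were -0.11, -0.21 and 0.13.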
